A study of Mus musculus with 4 samples.

Results

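The 8 genes described here are markers of the oligodendrocyte lineage: Olig1, Olig2, Sox10, Pdgfra, Gpr17, Cnp, Lhfpl3 and Bcas1. They were chosen by name as known lineage genes, with earlier results of these data known. All 8 were found by gene symbol among the 21578 genes in the joined count tables. They were measured by RNA-seq in brain endothelial cells of C57BL/6 mice at postnatal day 0 (P0), in 2 libraries of the genotype Pd1fl/fl and 2 of the genotype Pd1cKO-Tie2. Pd1fl/fl mice carry floxed alleles of Pd1 (Pdcd1, the immune checkpoint receptor PD-1) and served as controls. In Pd1cKO-Tie2 mice the floxed gene is deleted by a Cre recombinase under the Tie2 promoter, which is active in endothelial cells and, as is known of Tie2, also in blood cells and their precursors. Per the study's methods, endothelial cells were sorted from minced cortex by flow cytometry after labelling of CD31, an endothelial surface protein, and CD45, a leukocyte surface protein. The labels do not give the sex of the mice, how many animals went into a library, or whether the controls carried Cre.

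Oligodendrocytes, the myelinating cells of the central nervous system, arise from precursor cells that appear before birth in the ventral forebrain and spread through the cortex. Precursors are kept dividing and migrating by platelet-derived growth factor A acting on the receptor encoded by Pdgfra, while the transcription factors Olig1, Olig2 and Sox10 set their identity and drive later myelin genes. Gpr17, Bcas1 and Cnp are used as markers of cells that have left the precursor state, and precursors are known to migrate along blood vessels. Endothelial cells are not a known source of most of these transcripts. Several are not exclusive to the lineage: Pdgfra also marks fibroblasts, Sox10 marks Schwann cells and melanocytes, Olig1 and Olig2 mark ventral neural progenitors, and Cnp is found at low level in many cells.

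The libraries held 13714374 to 24146115 counts. Levels are given below as counts per 1000000 counts of the library (CPM) after TMM scaling, which equalises the typical gene between libraries, and a count of 0 allows up to 3 counts, or 0.124 to 0.219 CPM. Endothelial identity was clear: 10 endothelial markers, led by Cldn5, Esam and Kdr, summed to 9261 to 12914 CPM. Pdcd1 itself had 32 and 0 counts in the Pd1fl/fl libraries and 0 counts in both Pd1cKO-Tie2 libraries, too few to check the deletion. Pd1fl/fl replicate 1 stood apart in 5 neutrophil genes, led by Ngp, Ltf and S100a8, which summed to 721 CPM there and to between 0.633 and 1.88 CPM in the other 3 libraries. The 2 of them that were tested, Ngp and S100a8, both passed as lower in Pd1cKO-Tie2 by the criterion given below. For that reason the members are also given without it below.

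The promoter sequences of Olig2 and Lhfpl3 are shown because these were the members with the largest fitted differences between genotypes, in opposite directions. The RefSeq table (GRCm38.p6) matched 4 of the 8 members, Olig2, Pdgfra, Cnp and Lhfpl3, each with 250 bases before and 50 bases after the annotated start. Capitals mark 3 motifs, searched on both strands, none of which overlapped another. The letters CCAAT are a common promoter element, which reads ATTGG on the other strand. The letters TATAAA are the TATA box. The letters CAGCTG are an E-box, a kind of site bound by basic helix-loop-helix proteins, the class to which Olig1 and Olig2 belong.
Olig2, chr16:91225300-91225599, plus strand: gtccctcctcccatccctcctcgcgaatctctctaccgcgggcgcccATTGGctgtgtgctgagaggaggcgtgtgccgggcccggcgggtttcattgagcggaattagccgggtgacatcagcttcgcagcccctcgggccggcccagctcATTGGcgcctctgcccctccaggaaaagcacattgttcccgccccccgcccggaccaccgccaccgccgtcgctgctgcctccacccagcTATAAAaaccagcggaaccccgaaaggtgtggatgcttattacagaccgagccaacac
Lhfpl3, chr5:22745804-22746103, plus strand: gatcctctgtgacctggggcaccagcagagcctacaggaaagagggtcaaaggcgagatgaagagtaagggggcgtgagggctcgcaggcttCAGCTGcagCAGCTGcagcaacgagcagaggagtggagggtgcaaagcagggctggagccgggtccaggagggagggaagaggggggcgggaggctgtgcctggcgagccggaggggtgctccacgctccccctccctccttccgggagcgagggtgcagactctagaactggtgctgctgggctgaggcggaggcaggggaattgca

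The Olig2 window held the CCAAT element at 2 places and the TATA box at 1 place, and the Lhfpl3 window held the E-box at 2 places. Of 32851 promoters of the same length, 37.4% held the CCAAT element, 13.6% the TATA box and 16.3% the E-box. Both windows were rich in G and C, with 65% for Olig2 and 66% for Lhfpl3 against a median of 52.7% over all promoters. The windows of Pdgfra and Cnp held none of these letters.

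All 8 members were detected, and none differed between the genotypes by the criterion used here, which was that of the study: a fold change of at least 2 with an unadjusted p of 0.05 or less. Over all 15909 genes tested with edgeR's quasi-likelihood test, 640 genes passed, or 4.02%, of which 224 were higher (1.41%) and 416 lower (2.61%) in Pd1cKO-Tie2. None of the 8 members passed with edgeR, none had an unadjusted p under 0.05 (6.39% of all genes did), and none passed with DESeq2 or limma-voom. With the Benjamini-Hochberg adjustment over all genes no gene passed 0.05 in edgeR or limma-voom, while 114 did in DESeq2, none of them a member. The median log2 fold change (Pd1cKO-Tie2 over Pd1fl/fl) was 0.096 over the members, with 6 above and 2 below 0, against -0.0038 over all genes. With 2 libraries per genotype, the intervals of single members were wide, and the values below do not show that the genotypes were alike. In RNA from a population of cells, fewer cells of a type and less RNA per cell cannot be told apart.

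**Figure D1:**
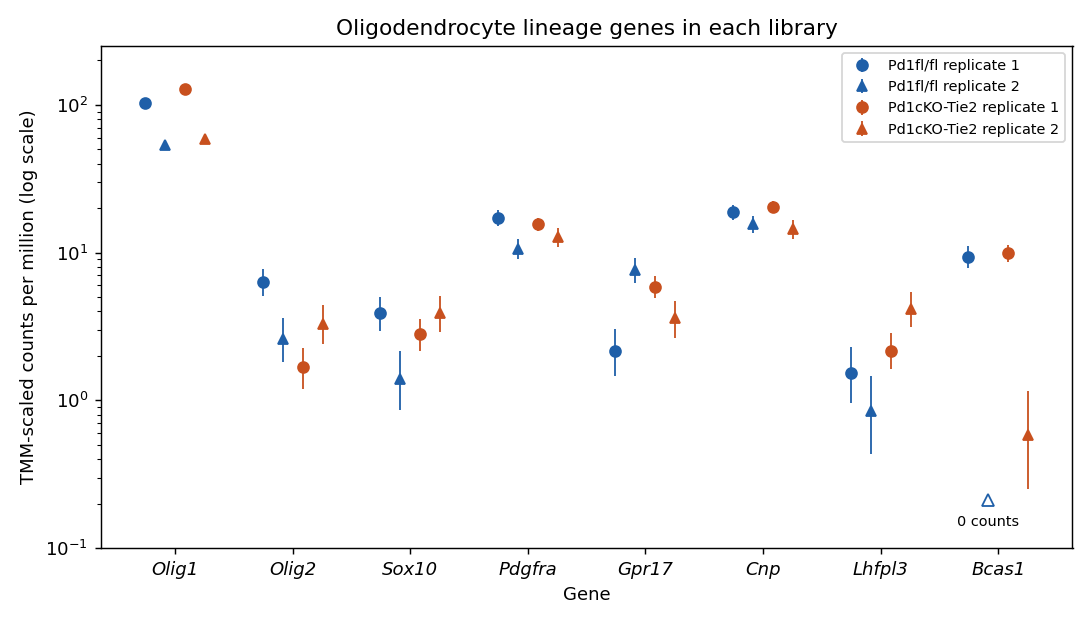
Level of each of the 8 lineage genes in each of the 4 libraries, in TMM-scaled CPM on a log axis, with the 2 Pd1fl/fl and the 2 Pd1cKO-Tie2 libraries marked by colour. Bars are exact Poisson 95% intervals that cover counting error only, and the open triangle marks the 0 counts of Bcas1 in Pd1fl/fl replicate 2, drawn at 3 counts. Lhfpl3 alone had both Pd1cKO-Tie2 libraries above both Pd1fl/fl libraries, and Olig1 lay above every other member in all 4 libraries.

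The transcription factors were Olig1, Olig2 and Sox10. Olig1 (ENSMUSG00000046160, GRCm38 chr16:91269772-91271933, plus strand), a basic helix-loop-helix factor needed for myelin gene expression and repair, was the most abundant member. It had 103 and 53.7 CPM in the controls, against 129 and 58.9 CPM in the Pd1cKO-Tie2 libraries. In each genotype replicate 1 was the higher library, and the genotypes overlapped. The means were 78.6 ± 35.2 CPM for the controls and 93.7 ± 49.3 CPM after deletion (SD, n = 2 each), with a log2 fold change of 0.26 (SE 0.47, 95% interval -0.91 to 1.42).

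Olig2 (ENSMUSG00000039830, chr16:91225550-91228677, plus strand), the related factor that specifies the lineage, ends 41094 bases before the start of Olig1 on the same strand, with the predicted gene Gm37016 between them. It had 6.30 and 2.60 CPM in the controls against 1.67 and 3.29 CPM after deletion, from 37 to 91 counts. The highest library was a control and the lowest a Pd1cKO-Tie2 library, with the other two lying between them and overlapping. The fitted difference was -0.84 on the log2 scale, or 1.80-fold higher in Pd1fl/fl (SE 1.00, 95% interval -3.33 to 1.64). It rested on Pd1fl/fl replicate 1: without that library the log2 fold change was -0.068.

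Sox10 (ENSMUSG00000033006, chr15:79154913-79164490, minus strand), the HMG-box factor that acts with the Olig proteins at myelin genes, had 3.87 and 1.41 CPM in the controls against 2.80 and 3.88 CPM after deletion. The lowest library was Pd1fl/fl replicate 2, and the highest control and the highest Pd1cKO-Tie2 library were level. The log2 fold change was 0.33 (SE 1.05, 95% interval -2.25 to 2.92).

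The cell surface genes were Pdgfra, Gpr17 and Lhfpl3. Pdgfra (ENSMUSG00000029231, chr5:75152292-75198215, plus strand), the receptor of platelet-derived growth factor A, had 17.2 and 10.6 CPM in the controls against 15.6 and 12.7 CPM after deletion. Both Pd1cKO-Tie2 libraries lay between the controls. The log2 fold change was 0.027 (SE 0.45, 95% interval -1.08 to 1.14).

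Gpr17 (ENSMUSG00000052229, chr18:31942997-31949636, minus strand), a G protein-coupled receptor that marks the passage from precursor to immature oligodendrocyte, had 2.14 and 7.59 CPM in the controls against 5.85 and 3.58 CPM after deletion. Both Pd1cKO-Tie2 libraries again lay between the controls, but here the order of the controls was the opposite of that of Pdgfra. The log2 fold change was -0.045 (SE 0.92, 95% interval -2.32 to 2.23), and limma-voom gave 0.28.

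Lhfpl3 (ENSMUSG00000106379, chr5:22746059-23275597, plus strand), a tetraspan membrane protein whose transcript is used as a marker of precursors, was the member with the largest fitted difference. It had 1.52 and 0.843 CPM in the controls against 2.17 and 4.17 CPM after deletion, from 22, 12, 52 and 57 counts. It was the 1 member of 8 whose genotypes did not overlap, where 35.8% of all tested genes did not overlap and 17.8% had both Pd1cKO-Tie2 libraries above. The means were 1.18 ± 0.480 CPM and 3.17 ± 1.41 CPM (SD, n = 2 each), 2.66-fold higher in Pd1cKO-Tie2, with a log2 fold change of 1.41 (SE 1.18, 95% interval -1.50 to 4.33, adjusted p = 0.991). A change of at least 2-fold with no limit on p was seen in 17.3% of all genes.

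The Lhfpl3 exons also overlap those of A930003O13Rik on the other strand over 567 bases, and 16.1% of the 50-base stretches of its transcripts occur in that gene too. The sources used here do not say whether reads were counted by strand. A930003O13Rik ran the other way, with 79 and 10 counts in the controls against 3 and 0 counts after deletion. It passed the criterion as lower (adjusted p = 0.760). The summed level of both genes was 6.99 and 1.55 CPM in the controls against 2.30 and 4.17 CPM after deletion, so that the genotypes overlapped in the sum. The part of shared reads in the Lhfpl3 difference was not tested.

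The genes of later stages were Bcas1 and Cnp. Bcas1 (ENSMUSG00000013523, chr2:170346991-170427845, minus strand), a marker of premyelinating and early myelinating cells, varied most. It had 135 and 0 counts in the controls against 236 and 8 counts after deletion, or 9.34, 0, 9.86 and 0.585 CPM. In each genotype replicate 1 held nearly all of its counts, and the higher library of each genotype was at about the same level. The log2 fold change was 0.17 with an SE of 2.14 (95% interval -5.14 to 5.47). Without Pd1fl/fl replicate 1, where the remaining control was at 0 counts, Bcas1 passed the criterion as higher in Pd1cKO-Tie2 (adjusted p = 0.764). Without Pd1cKO-Tie2 replicate 1 its fitted difference was -2.97. Antisense transcripts to Bcas1 (Bcas1os1 and Bcas1os2) overlap 474 of its exonic bases.

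Cnp (ENSMUSG00000006782, chr11:100574904-100591729, plus strand), the enzyme of non-compact myelin, was the steadiest member. It had 18.7 and 15.6 CPM in the controls against 20.4 and 14.3 CPM after deletion. The Pd1cKO-Tie2 libraries were the highest and the lowest of the 4. The means were 17.1 ± 2.18 CPM and 17.4 ± 4.31 CPM (SD, n = 2 each), with a log2 fold change of 0.020 (SE 0.39, 95% interval -0.94 to 0.98). Exons of Cnp overlap those of Dnajc7 over 154 bases on the other strand, as those of Gpr17 do with Lims2 over 188 bases and those of Pdgfra with Gm42802 and Gm42803 over 622 bases. The adjusted p was 1.00 for each member other than Lhfpl3.

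Leaving out Pd1fl/fl replicate 1, the library with neutrophil transcripts, moved the fitted log2 fold change to 0.81 for Olig1, 1.24 for Sox10, 0.42 for Pdgfra, -0.68 for Gpr17, 0.16 for Cnp and 1.90 for Lhfpl3. None of these passed the criterion. Leaving out Pd1fl/fl replicate 2 instead gave -0.14 for Olig1, -0.21 for Sox10, -0.27 for Pdgfra and 1.14 for Gpr17. Only Olig2 (-1.41 to -0.068) and Lhfpl3 (0.88 to 1.90) kept 1 sign whichever library was left out.

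For most members, the libraries of 1 genotype differed by more than the genotype means did. For 6 of the 8 members, the log2 gap between the 2 controls and that between the 2 Pd1cKO-Tie2 libraries were both larger than the difference of the genotype means, and for 7 of 8 at least 1 gap was. Lhfpl3 was the exception, with gaps of 0.77 and 0.90 against a difference of means of 1.32. Bcas1 had the widest gaps, at least 44.3-fold between controls (with the 0 set to 3 counts) and 16.9-fold between Pd1cKO-Tie2 libraries. Gpr17 differed 3.54-fold, Sox10 2.76-fold and Olig2 2.42-fold between the controls. Cnp differed 1.20-fold between the controls and 1.43-fold between the Pd1cKO-Tie2 libraries. The gap between controls exceeded the all-gene median of 0.47 (log2) for 7 members, and that between Pd1cKO-Tie2 libraries exceeded the all-gene median of 0.46 for 6 members. A gap between 2 single libraries tends to exceed a difference of means of 2 libraries each, also for an unchanged gene. Over all genes the median difference of means was 0.36, below both median gaps. This order of sizes was therefore not particular to the members, and its share over all genes was not counted.

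**Figure D2:**
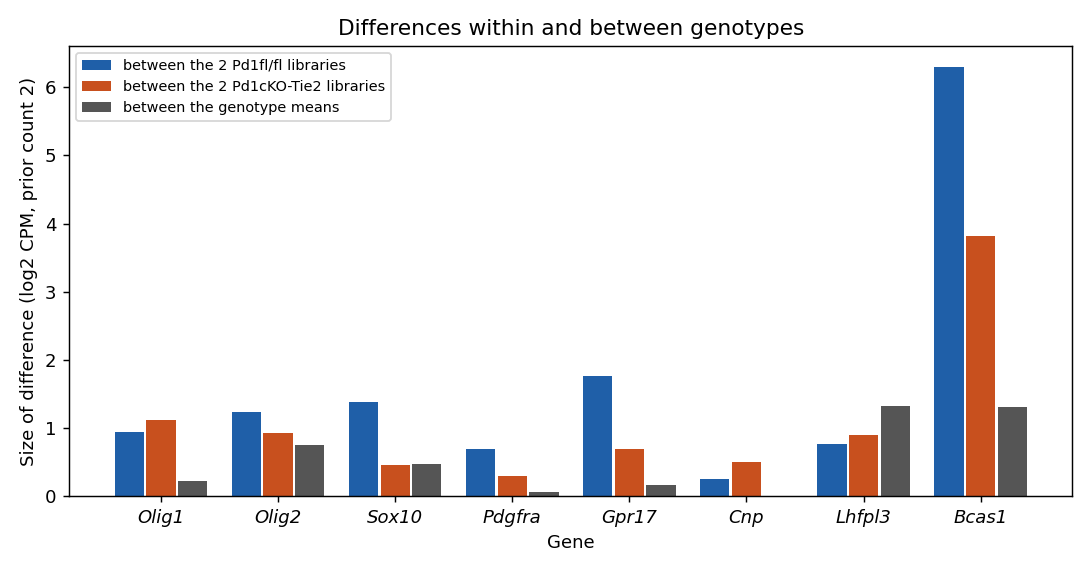
For each of the 8 lineage genes, the absolute log2 difference between the 2 Pd1fl/fl libraries, between the 2 Pd1cKO-Tie2 libraries and between the genotype means (log2 CPM with a prior count of 2), as bars that start at 0. The bar for the genotype means is the tallest of the 3 for Lhfpl3 (1.32) alone, and the bars between libraries of Bcas1 reach 6.29 and 3.82.

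The members did not vary as 1 block. Olig1, Pdgfra, Cnp and Bcas1 were higher in replicate 1 than in replicate 2 of both genotypes, and Olig2, Sox10, Gpr17 and Lhfpl3 did not follow this order. Replicate numbers of the 2 genotypes are not known to mark a shared litter or day. The summed level of the 8 members was 162 and 92.4 CPM in the controls against 187 and 101 CPM after deletion, of which Olig1 gave 58.0% to 68.8%. Without Olig1 the sums were 59.0, 38.7, 58.4 and 42.6 CPM. Set against the summed endothelial markers of the same library, the members came to 1.59% and 0.997% in the controls and 1.55% and 0.785% after deletion, so the genotypes overlapped on this scale too.

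Compared per kilobase of merged exon (GENCODE M21), so that levels of different genes can be set side by side, Olig1 stood at 39.8 ± 16.7 CPM per kb (SD over 4 libraries), Cnp at 4.74 ± 0.767 and Pdgfra at 1.40 ± 0.291. The ranges of these 3 genes did not overlap, and Olig1 and Cnp were the highest and the next in every library. The range of Pdgfra (1.06 to 1.71 CPM per kb) lay within that of the gene after it, Olig2 (0.660 to 2.49), and its place among the lower members changed from library to library. Olig2 (1.37 ± 0.791), Bcas1 (1.31 ± 1.43), Sox10 (0.980 ± 0.384), Gpr17 (0.922 ± 0.464) and Lhfpl3 (0.677 ± 0.446 CPM per kb) overlapped each other and Pdgfra, and the order of these 6 genes was not resolved by 4 libraries. Per kb, Olig1 exceeded its neighbour Olig2 by 19.2- and 24.2-fold in the controls and by 90.0- and 20.9-fold after deletion. Exons of Olig1 share 157 bases with Gm15966 on the other strand, and no other member shares a 50-base stretch with it.

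Ratios between members, which do not depend on the scaling of a library, also overlapped between genotypes in most cases. Pdgfra to Gpr17, the precursor receptor against the receptor of the next stage, was 4.15 and 0.725 per kb in the controls against 1.38 and 1.84 after deletion. Sox10 to Olig2 was 0.510 and 0.448 in the controls against 1.39 and 0.977 after deletion, the 1 ratio of these with genotypes apart. With 2 libraries against 2, the smallest p that an exact permutation test can give is 0.333 (two-sided), and the ratios are given as values. Pdgfra to Cnp stayed between 0.247 and 0.333. Bcas1 to Cnp was 0.482 and 0 in the controls against 0.465 and 0.0393 after deletion.

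Beside the members, 36 further lineage genes were listed, of which 30 were in the tables and 26 were tested. Of these, 1 passed the criterion in edgeR, Sox6 (4.02% of all genes did). An unadjusted p under 0.05 was seen for 2, Sox6 and Ptprz1, both lower in Pd1cKO-Tie2 (6.39% of all genes had one). Both counts were near the shares of all genes. Among the 26, 20 had a log2 fold change below 0 and 7 had both Pd1cKO-Tie2 libraries below both controls (18.1% of all genes did). Their median was -0.21.

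In the precursor list (12 tested) 1 gene was lower by the criterion, none was higher, and the median was -0.33. Sox6, an SRY-related factor that holds precursors undifferentiated, had 25.9 and 33.1 CPM in the controls against 13.2 and 13.2 CPM after deletion. The controls lay well above both Pd1cKO-Tie2 libraries, which were level (29.5 ± 5.06 against 13.2 ± 0.0552 CPM, SD, n = 2 each; log2 fold change -1.16, SE 0.34, adjusted p = 0.735). The call was lost without Pd1fl/fl replicate 2 and without Pd1cKO-Tie2 replicate 1. Ptprz1, a receptor phosphatase of precursors and radial glia, had 314 and 502 CPM in the controls against 243 and 192 CPM after deletion (log2 fold change -0.91, SE 0.26, adjusted p = 0.735), just short of 2-fold. The proteoglycans Bcan (log2 fold change -0.41) and Vcan (-0.23) did not pass (adjusted p = 1.00 for each). Sox6, Ptprz1, Bcan and Vcan are not confined to the lineage, and radial glia and astroglia are known to express several of them.

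In the list of committed oligodendrocytes (5 tested) no gene passed with edgeR, none had p under 0.05, and none passed with DESeq2 or limma-voom. Its median was 0.25, which was the value of Itpr2. Of the 8 genes listed, 6 were found in the joined counts. Its leading genes were Itpr2, Tcf7l2 and Tns3, with means of 120, 63.6 and 7.58 CPM over the libraries. Tcf7l2, a Wnt pathway factor of differentiating oligodendrocytes, had 55.3 and 57.1 CPM in the controls against 73.4 and 68.6 CPM after deletion (log2 fold change 0.34, adjusted p = 0.946).

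In the myelin list (9 tested) no gene passed with edgeR or limma-voom and none had p under 0.05, while DESeq2, which tested 10, called 1, Ermn. The median log2 fold change of the list was -0.70, with 7 of 9 genes below 0. For 2 of 9 genes both Pd1cKO-Tie2 libraries lay below both controls (18.1% of all genes did). Ermn had 0, 0, 0 and 66 counts, all of them in Pd1cKO-Tie2 replicate 2. Mbp, myelin basic protein, had 17.0 and 6.19 CPM in the controls against 7.23 and 7.02 CPM after deletion. The highest library was a control and the other 3 were close together (log2 fold change -0.70, adjusted p = 1.00). Mal, a myelin proteolipid also made by other cells, was the most abundant gene of the list at 97.8 and 146 CPM in the controls against 177 and 148 CPM after deletion (log2 fold change 0.41, adjusted p = 0.933). Tspan2 differed by less than the spread between libraries, with 31.3 and 44.3 CPM against 31.3 and 44.5 CPM.

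**Figure D3:**
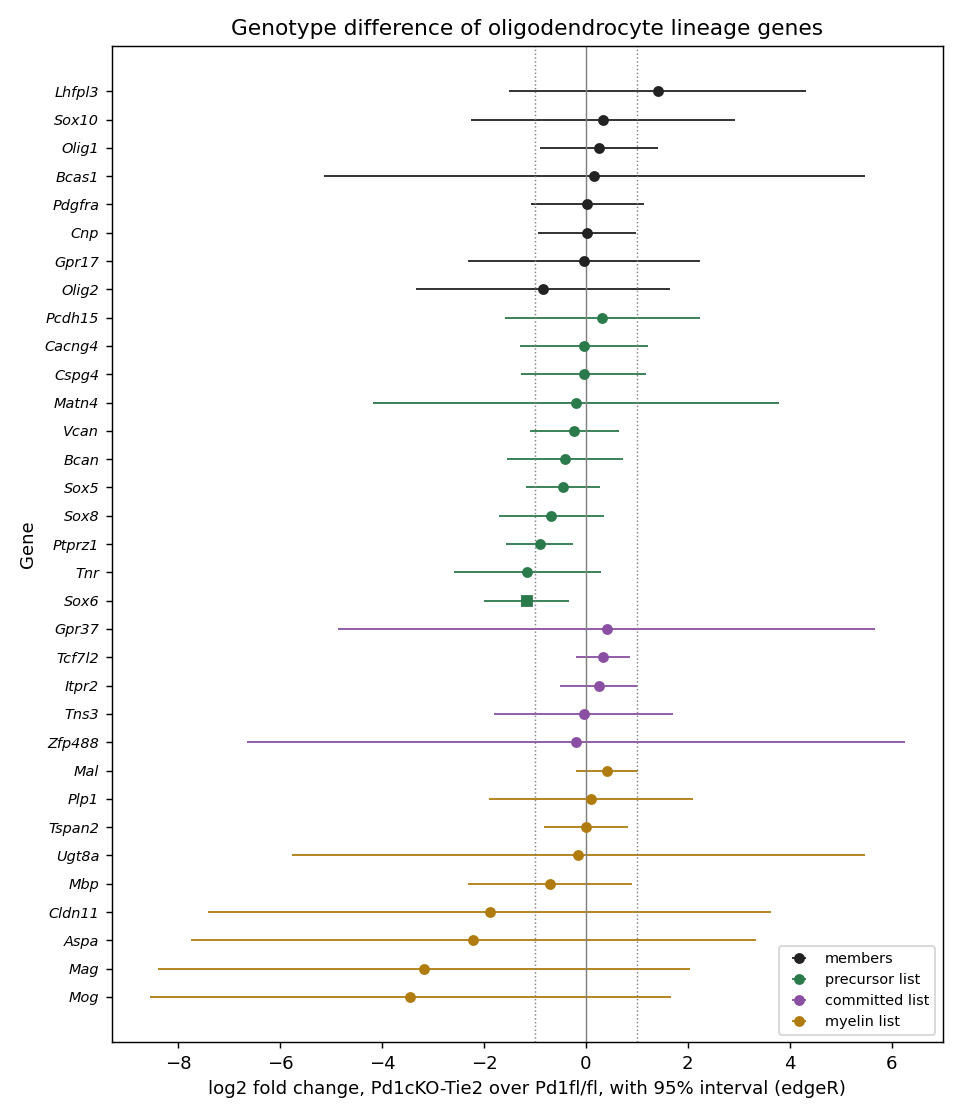
Fitted log2 fold change (Pd1cKO-Tie2 over Pd1fl/fl, edgeR) of the 8 members and of 25 of the 26 tested genes of the other lineage lists, with 95% intervals as bars. Dotted lines mark 2-fold in either direction and a square marks a gene past the criterion, which among these is Sox6 alone (-1.16). The intervals of all 8 members cross 0, that of Bcas1 from -5.14 to 5.47.

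The 4 platelet-derived growth factor genes were all tested. None passed with edgeR, DESeq2 or limma-voom, and 2 had an unadjusted p under 0.05 (6.39% of all genes did). Pdgfb, which endothelial cells release to recruit pericytes, had 66.8 and 68.2 CPM in the controls against 102 and 101 CPM after deletion, 1.50-fold higher (log2 fold change 0.58, SE 0.19, adjusted p = 0.735). Pdgfd had 84.6 and 83.9 CPM in the controls against 117 and 141 CPM after deletion, 1.53-fold higher (log2 fold change 0.61, SE 0.20, adjusted p = 0.735). For both, the genotypes did not overlap (35.8% of all genes did not) and the controls were nearly level, and neither reached 2-fold. The 10 endothelial markers were higher in the same libraries, with a median log2 fold change of 0.35, and the part of this in the PDGF values was not tested. With 1 library left out, neither gene had an unadjusted p under 0.05 in 3 of the 4 fits, the exception being Pdgfd without Pd1cKO-Tie2 replicate 1, where Pdgfc passed the criterion as lower. Neither protein is the classic ligand of the receptor on precursors. Pdgfc had 2.91 and 5.97 CPM in the controls against 4.18 and 0 CPM after deletion. Pdgfa, which is that ligand, had 23 and 14 counts in the controls against 98 and 4 counts after deletion, with the highest and the lowest library in the same genotype.

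Of 6 genes known to restrain differentiation, all tested, 1 passed the criterion, Hes5 (4.02% of all genes did). For 3 of the 6 both Pd1cKO-Tie2 libraries lay below both controls (18.1% of all genes did). Hes5, a Notch target, had 27.6 and 41.1 CPM in the controls against 17.4 and 14.7 CPM after deletion (log2 fold change -1.10, SE 0.35, adjusted p = 0.735). Its call was lost without Pd1fl/fl replicate 2 and without Pd1cKO-Tie2 replicate 2. Id2, the most abundant, had 326 and 369 CPM in the controls against 291 and 320 CPM after deletion (log2 fold change -0.19, adjusted p = 0.985). Hes1 had a log2 fold change of -0.61 (adjusted p = 0.953).

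Markers of other cells that could carry these transcripts were summed per library. The 9 astroglial and radial glial genes summed to 938 and 1016 CPM in the controls against 670 and 499 CPM after deletion, with a median log2 fold change of -0.79. For 5 of 9 genes both Pd1cKO-Tie2 libraries lay below both controls (18.1% of all genes did). For 1 gene both lay above (17.8% of all genes did). Fabp7 passed as lower (log2 fold change -1.01), as did 2.61% of all genes. Hopx passed as higher (1.41% of all genes did), with 0 and 1 counts in the controls against 358 and 43 counts after deletion. Slc1a3, the most abundant, had a log2 fold change of -0.79, short of 2-fold (adjusted p = 0.735). Sox9, the third by level, had a log2 fold change of -0.49 (adjusted p = 0.966). No gene of the list passed in limma-voom (4 had an unadjusted p under 0.05), and the lower calls ranged from 0 without Pd1cKO-Tie2 replicate 2 to 4 without Pd1cKO-Tie2 replicate 1. This list was lower in the same libraries as Sox6, Ptprz1 and Hes5, which are genes of radial glia and astroglia too. Its part in those results was not tested.

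The 9 microglial genes summed to 1926 and 2362 CPM in the controls against 731 and 1621 CPM after deletion. For 8 of 9 both Pd1cKO-Tie2 libraries lay below both controls (18.1% of all genes did). By the criterion 2, Tmem119 and Trem2, were lower (2.61% of all genes were). That count was 5 in limma-voom, 0 without Pd1cKO-Tie2 replicate 1, 9 without Pd1cKO-Tie2 replicate 2, 3 without Pd1fl/fl replicate 1 and 1 without Pd1fl/fl replicate 2. Its leading genes were Csf1r, C1qa and C1qb. The 11 neuronal genes, led by Dcx, Map2 and Neurod6, summed to between 936 and 1352 CPM in each of the 4 libraries, and none passed with edgeR, DESeq2 or limma-voom. Their median log2 fold change was -0.14. The 4 tested genes of ventral progenitors, which express Olig1 and Olig2, gave no call. The sum of all 5 was highest in Pd1cKO-Tie2 replicate 1 (205 CPM, against 94.9 to 139 CPM in the others). In that library Olig1 was also highest, while Olig2 was lowest (1.67 CPM). Dlx2, which led the list before Dlx1 and Lhx6, had 129 CPM there and 45.1 to 57.6 CPM elsewhere. Nkx2-1 was at 0 counts outside Pd1fl/fl replicate 1. The part of such progenitors in the level of Olig1 was not tested.

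The 8 fibroblast genes, of cells that share Pdgfra, were led by Col3a1, Col1a2 and Foxc1 and summed to 129 and 48.8 CPM in the controls against 84.7 and 94.2 CPM after deletion, and 0 of 4 tested passed with edgeR or limma-voom, while DESeq2 called 1 of 8. Col1a1, Lum and Aldh1a2 were at 0 counts in 3 libraries and had 152, 39 and 41 counts in Pd1fl/fl replicate 1, the library in which Pdgfra was highest. Of 8 genes of neural crest and Schwann cells, which share Sox10, 3 were in the tables. Ngfr had 44.1 and 10.5 CPM in the controls against 25.3 and 9.95 CPM after deletion, Mitf had 11, 82, 0 and 0 counts, and Dct had 0, 0, 65 and 48 counts. Dct passed as higher (1.41% of all genes did) and Mitf as lower (2.61% of all genes did). Both calls rested on a genotype at 0 counts, and Mitf did not pass in limma-voom. The pericyte genes, led by Rgs5, Kcnj8 and Vtn, summed to 5716 and 3734 CPM in the controls against 3821 and 3814 CPM after deletion with no call by any of the 3 tools. All 7 tested pericyte genes had a log2 fold change below 0 (median -0.37). For 3 of them both Pd1cKO-Tie2 libraries lay below both controls (18.1% of all genes did). The 6 erythroid genes, led by Hba-a1, Hbb-bs and Alas2, summed to 547 to 1061 CPM, also with no call. All 10 endothelial genes were higher in both Pd1cKO-Tie2 libraries (17.8% of all genes were), with a median log2 fold change of 0.35. An unadjusted p under 0.05 was seen for 4 in edgeR (6.39% of all genes had one). That count was 2 with library size scaling and 8 in limma-voom. No endothelial gene was called by any of the 3 tools with all libraries. The part of these cells in the members' levels was not tested.

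**Figure D4:**
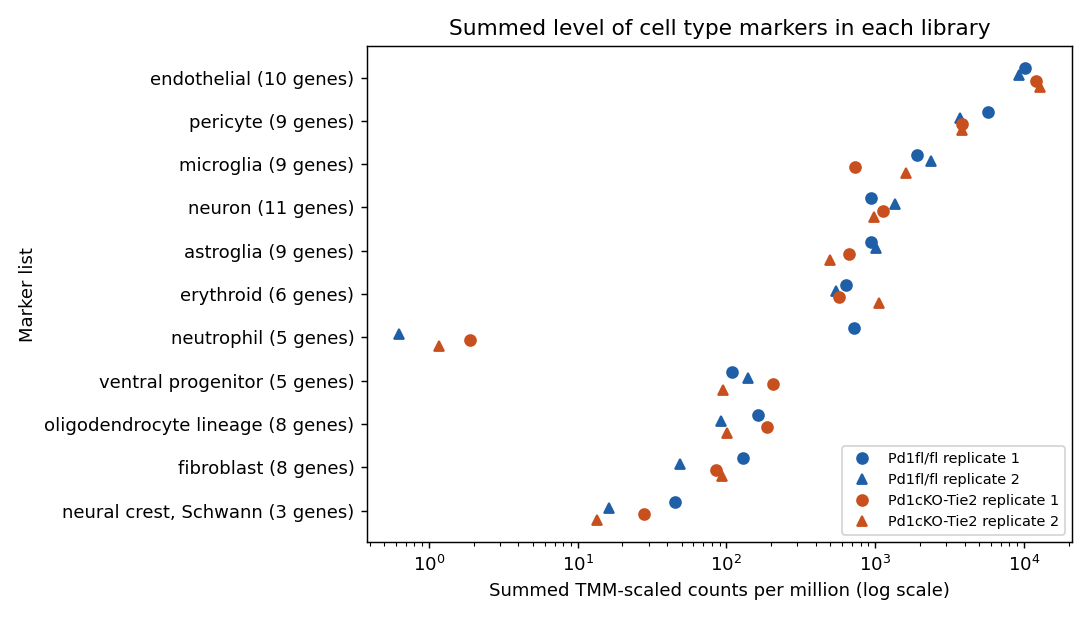
Summed TMM-scaled CPM of the 8 members and of each list of cell type markers in the 4 libraries, on a log axis, with libraries marked by genotype. The endothelial sum lies between 9261 and 12914 CPM, the members between 92.4 and 187 CPM, and the neutrophil sum reaches 721 CPM in Pd1fl/fl replicate 1 alone.

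The genes whose pattern over the 4 libraries was most like the mean of the members were Rnf20, Ola1, Prkce, Hmces and Rbm43, with root mean square distances of 0.038 to 0.060 on the log2 scale after centring. The members' mean pattern was 0.44 and -0.79 in the controls, against 0.43 and -0.084 in the Pd1cKO-Tie2 libraries, and Bcas1, with the widest range, weighs most in it. With 4 libraries such likeness is common, as 315 of 15901 genes lay within 0.25 of the pattern.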

How the data were processed

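The authors deposited 4 tables, 1 for every combination of a knockout and a control library, with 2 libraries per genotype. The deposited tables hold raw read counts per gene, CPM computed by the authors from the library totals, and the authors' fold changes and p-values, which were not used. The submitters' processing notes name Bowtie2 2.2.3, TopHat2 2.0.12, HTSeq 0.6.0 and mm9, without roles. Gene positions in the tables were those of GRCm38, and 90.0% equalled GENCODE M21. Strand use in counting is not given in the sources used here. The tables were joined to 21578 genes, with 0 for a gene not listed for a library. Counts of all genes not listed for a library made up 0.00495% to 0.0107% of the authors' total for it. The column of the second Pd1cKO-Tie2 library carries number 2 where the labels give 3, so it was mapped by genotype only.

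Counts were fitted in R 4.3.3 with edgeR 4.0.16 (filterByExpr, TMM, quasi-likelihood F test, all 4 libraries, no covariate), leaving 15909 genes, all 8 members included. A call needed a 2-fold change and p of 0.05 or less, as in the study. Benjamini-Hochberg adjustment ran over all tested genes. Alternatives were DESeq2 1.42.0, limma-voom (limma 3.58.1), other scalings and filters, and leaving out each library. The labels do not say that libraries came from separate animals, so p-values measure only the spread between these libraries. Intervals of counts are exact Poisson intervals at 95% and cover counting error only.

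The members and gene lists were chosen with earlier results of these data known. The text names all members, the 3 most abundant genes of each list with every gene of it past the criterion, and the 5 genes most like the members' mean. Further genes (Pdgfa, Ermn, Nkx2-1, Col1a1, Lum, Aldh1a2, A930003O13Rik) were named after their values were seen. A listed gene that enters the counts of the precursor list is not reported here.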

Additional observations from a re-analysis of the deposited data

How the results depend on the processing

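Poisson intervals of the 2 controls lay apart for 6 of 8 members, as did those of the 2 Pd1cKO-Tie2 libraries for 6 of 8, so for these the spread between libraries exceeded counting error. No member passed the criterion under DESeq2, limma-voom, RLE, upper quartile or library size scaling, either filter or 4 counts for an unlisted gene. Leaving out 1 library gave 0 to 1 members called, the 1 being Bcas1 without Pd1fl/fl replicate 1 (fitted log2 fold change 9.50, no bound, as the remaining control was at 0). The requirement of 10 counts in every library removed Bcas1.

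The sign of small differences was not kept. Gpr17 was 0.28 in limma-voom, and with library size scaling Pdgfra was -0.028 and Cnp -0.037. With 1 library left out, the log2 fold change ranged from -0.41 to 0.81 for Olig1, -0.21 to 1.24 for Sox10, -0.27 to 0.42 for Pdgfra, -0.68 to 1.14 for Gpr17, -0.25 to 0.26 for Cnp and -2.97 to 9.50 for Bcas1. The members' median ranged from -0.33 to 0.61 with 1 library left out and from 0.023 to 0.30 otherwise.

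Lineage genes beside the members gave 2 calls in DESeq2 and 0 to 4 with 1 library left out: 3 without Pd1fl/fl replicate 1, 0 without Pd1fl/fl replicate 2, 4 without Pd1cKO-Tie2 replicate 1 and 1 without Pd1cKO-Tie2 replicate 2. Their median stayed below 0, from -0.74 to -0.0024. Calls over all genes ranged from 480 to 936. The causes were not tested. No paired analysis was possible because the genotypes share only the replicate number 1 in the labels.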

Other observations

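Matn4, an extracellular matrix protein of the precursor list singled out after its values were seen, was high in the same libraries as Bcas1. It had 161 and 7 counts in the controls against 222 and 11 counts after deletion. Replicate 1 was the higher library of each genotype and the genotypes overlapped, with a log2 fold change of -0.20 (adjusted p = 1.00). Myelin genes did not share this order throughout: Mog had 15 and 74 counts in the controls against 13 and 0 counts after deletion, and Mag had 37 and 29 against 0 and 7 counts.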
